A study of Mus musculus with 6 samples.

Results

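The collagen family was examined in cells sorted from mouse breast tumours by a reporter of the transcription factor Elf5. Members were the genes whose Ensembl identifier maps to a mouse symbol made of Col, a number, the letter a and a number, which gave 44 of the 52325 genes in the table. By class there were 11 fibrillar collagens, 6 basement membrane collagens (the chains of type IV), 9 FACIT collagens (fibril-associated collagens with interrupted triple helices) and 18 others. All 44 members are annotated as protein-coding genes, and their classes were assigned by symbol, so family membership was not checked separately. A low-count filter was passed by 42 members, and Col19a1 and Col22a1, at under 1 CPM (counts scaled to a common library size) in each library, were not tested.

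Collagens are secreted proteins whose chains wind into a triple helix, and they make up much of the extracellular matrix of connective tissue and tumour stroma. Fibrillar collagens assemble into banded fibres, FACIT collagens sit on the surface of those fibres, and type IV collagen forms the sheet-like network of the basement membrane under epithelia. In mammary tissue fibroblasts are the main known source of the fibrillar chains, while epithelial, endothelial and other cells also make basement membrane chains.

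Libraries of Elf5+ cells (2) and of Elf5- cells (4) came from breast tumours of C57BL/6 mice that carried C3-T, the tumour background, and an Elf5-GFP reporter, both shared by all 6 libraries. Tumours were digested with collagenase and hyaluronidase, sorted with antibodies to CD45, CD31 and TER119 (markers of leukocytes, endothelium and erythroid cells), and separated into GFP+ (Elf5+) and GFP- (Elf5-) cells. The comparison asks how the collagen transcripts of the Elf5+ and Elf5- fractions differ. The labels do not give the age of the mice, expand C3-T, or say which libraries came from which animal. The p-values below therefore rest on library-to-library spread, part of which may be technical. Both Elf5+ libraries carry the title code T2, as do Elf5- libraries 2 and 4, whereas Elf5- libraries 1 and 3 carry T1. Titles also hold a number, shared by Elf5+ library 1 with Elf5- libraries 1 and 2, and by Elf5+ library 2 with Elf5- libraries 3 and 4. The labels define neither code nor number, so libraries may share an animal or tumour. The main tests treat all 6 as independent.

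Library totals were 45145621 and 49563376 counts in the Elf5+ libraries and 9106660 to 53694884 counts in the Elf5- libraries, with Elf5- library 4 the smallest. Elf5 itself, on which the sort was made, stood at 77.7 and 137 CPM in Elf5+ libraries 1 and 2, against 10.7, 6.93, 10.5 and 24.7 CPM in Elf5- libraries 1 to 4 (TMM-scaled CPM), with no overlap. Markers of other cells differed between the fractions as well. Of 14 fibroblast markers that are not collagens, 13 were lower in Elf5+ cells, and their summed level was 312 and 399 CPM in the Elf5+ libraries, against 3324 to 8709 CPM in the Elf5- libraries. None of the 14 was at 0 in either Elf5+ library. Of 9 pericyte and smooth muscle markers 6 were lower, with sums of 128 and 117 CPM in the Elf5+ libraries, against 556 to 1551 CPM in the Elf5- libraries, and of 18 luminal and pan-epithelial markers 9 were higher, with sums of 9279 and 6376 CPM in the Elf5+ libraries, against 2369 to 4029.6 CPM in the Elf5- libraries. In bulk RNA, fewer cells of a type and less RNA per cell cannot be told apart, and the part of these markers in the collagen results was not tested.

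Collagen transcripts took a much smaller share of the RNA of Elf5+ cells. They made up 0.433% and 0.450% of all counts in Elf5+ libraries 1 and 2, against 3.10%, 2.53%, 5.48% and 2.48% in Elf5- libraries 1 to 4, with no overlap. In edgeR's quasi-likelihood test over 20684 genes, with Benjamini-Hochberg adjusted p below 0.05 as the threshold, 19 of the 42 tested collagens were lower in Elf5+ cells and 1, Col9a2, was higher. Among all genes tested 3.79% were lower and 0.585% were higher. The median log2 fold change (Elf5+ over Elf5-) of the tested collagens was -3.37, against 0.05 for all genes tested. For 29 members every Elf5+ value lay below every Elf5- value, as it did for 14.8% of all genes tested, and for 4 members it lay above, as for 10.9% of all genes. A further 10 members had a negative and 4 a positive log2 fold change with an unadjusted p below 0.05 that did not pass after adjustment. With those that passed, 29 collagens were lower and 5 higher at an unadjusted p below 0.05, against 2423 and 1075 of all 20684 genes.

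**Figure D1:**
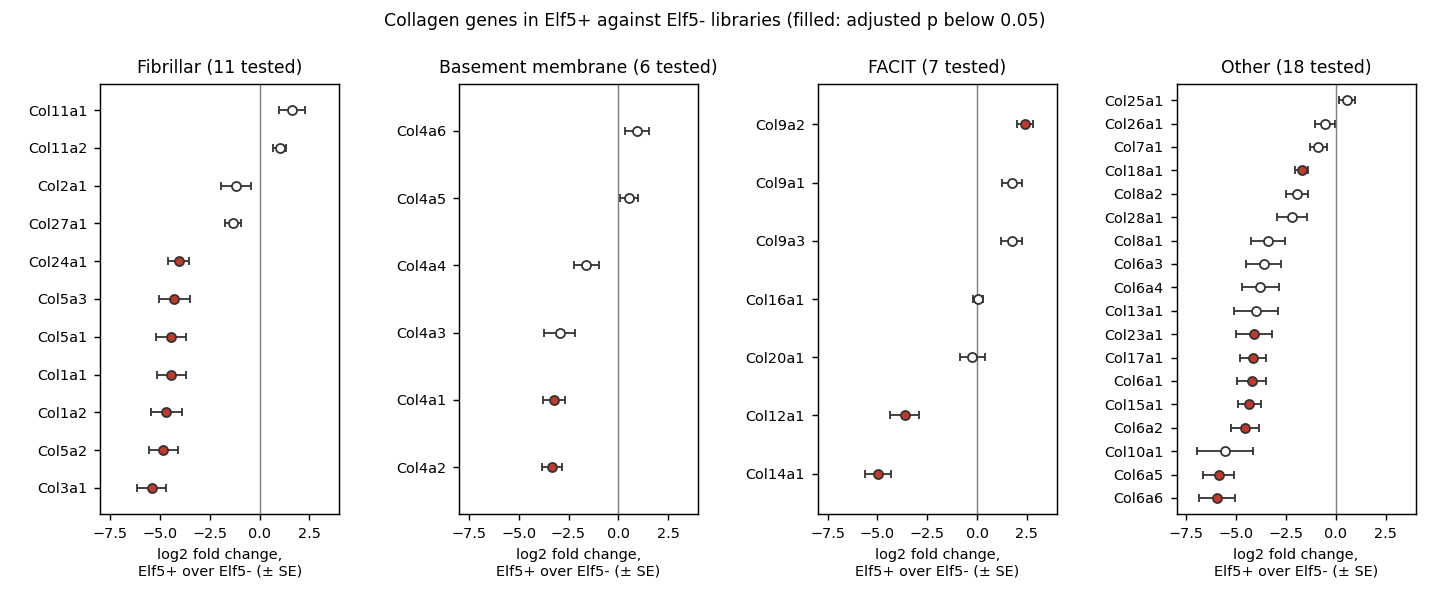
Log2 fold change of each tested collagen, Elf5+ over Elf5-, by class, with bars of ± 1 standard error from edgeR; filled points passed an adjusted p of 0.05. Of the 42 points, 19 filled points lie left of 0 and 1, Col9a2, lies right of it.

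The number of lower collagens moved when single libraries were left out. It was 18 without Elf5+ library 1 and 5 without Elf5+ library 2, where 2.7% and 0.893% of all genes were lower; either fit has a single Elf5+ library, which is assumed to vary like the Elf5- libraries. It was 9, 17, 13 and 21 without Elf5- libraries 1, 2, 3 and 4 in turn, where 1.23%, 2.72%, 1.66% and 3.99% of all genes were lower. With the 4 T2 libraries alone and no block, edgeR called 0 collagens in either direction and 0% of all genes, with 27 collagens lower and 1 higher at an unadjusted p below 0.05. Of the 19395 genes tested there, 1463 were lower and 469 higher at that unadjusted threshold. DESeq2 on all 6 libraries called 28 lower and 3 higher collagens, with 7.88% of all genes lower and 1.79% higher. Of the 20 called collagens none changed sign in any of 16 other settings.

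Promoter windows of 5 collagens are shown because types IX and XI together took a larger share of collagen counts in both Elf5+ libraries, while the chains of types I and III were lower; Col11a1 itself overlapped between groups. Each line holds the 250 bases upstream of the RefSeq start site (build GRCm38.p6, plus strand, 5′ to 3′), at chr1:24177360-24177609, chr4:121039316-121039565, chr3:114030290-114030539, chr6:4505368-4505617 and chr1:45311288-45311537 in the order given. Capitals mark GGAA and its reverse complement TTCC, the core letters bound by ETS factors, the family of Elf5.
Col9a1: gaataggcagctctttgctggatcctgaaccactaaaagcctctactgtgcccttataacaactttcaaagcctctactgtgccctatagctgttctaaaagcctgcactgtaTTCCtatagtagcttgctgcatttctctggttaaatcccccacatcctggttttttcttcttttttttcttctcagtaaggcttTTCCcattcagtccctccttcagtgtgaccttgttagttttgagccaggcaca
Col9a2: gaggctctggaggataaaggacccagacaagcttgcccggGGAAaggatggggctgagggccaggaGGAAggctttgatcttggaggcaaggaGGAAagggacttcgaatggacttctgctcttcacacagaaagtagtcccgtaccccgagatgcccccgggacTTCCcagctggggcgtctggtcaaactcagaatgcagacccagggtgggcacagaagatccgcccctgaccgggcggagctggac
Col11a1: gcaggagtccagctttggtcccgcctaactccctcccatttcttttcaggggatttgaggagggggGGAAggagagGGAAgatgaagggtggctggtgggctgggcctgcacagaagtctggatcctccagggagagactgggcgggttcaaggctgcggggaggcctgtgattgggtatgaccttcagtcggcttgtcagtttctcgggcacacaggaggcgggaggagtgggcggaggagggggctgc
Col1a2: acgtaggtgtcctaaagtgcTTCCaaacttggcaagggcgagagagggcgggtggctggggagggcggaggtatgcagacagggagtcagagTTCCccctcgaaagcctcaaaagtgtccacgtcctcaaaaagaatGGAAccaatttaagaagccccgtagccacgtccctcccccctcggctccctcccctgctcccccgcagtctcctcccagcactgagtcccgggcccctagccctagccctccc
Col3a1: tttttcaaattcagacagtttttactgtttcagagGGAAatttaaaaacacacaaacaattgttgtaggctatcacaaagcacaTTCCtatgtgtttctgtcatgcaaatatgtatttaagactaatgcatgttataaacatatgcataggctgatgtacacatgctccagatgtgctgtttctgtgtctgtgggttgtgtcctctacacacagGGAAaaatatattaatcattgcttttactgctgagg
RefSeq windows were found for 35 of the 44 members, 38 windows in all. GGAA or TTCC occurred in 38 of the 38 windows, and in 93.4% of the 32851 promoters of the same length in the table. CCAAT (or ATTGG) occurred in 34.2% of the collagen windows and 33.8% of all windows, and GGGCGG (or CCGCCC) in 57.9% and 32.7%. Each motif was searched on both strands, and a match is a description of these letters and not a binding site.

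Fibrillar collagens made up most of the collagen RNA of Elf5- cells and far less in Elf5+ cells, with summed levels of 1643 and 1765 CPM in the Elf5+ libraries, against 17316 to 47851 CPM in the Elf5- libraries. Of 11 tested, 7 were lower in Elf5+ cells and none was higher in that test, and the median log2 fold change was -4.27. Col3a1, the chain of type III collagen in loose connective tissue (ENSMUSG00000026043.18, chromosome 1, 45311538 to 45349706, plus strand, GRCm38), was at 261 and 223 CPM in Elf5+ libraries 1 and 2, against 8876, 5289, 19805 and 7054 CPM in Elf5- libraries 1 to 4. The 2 Elf5+ values were close to each other and far below each Elf5- value, of which library 3 was the highest. Its level averaged 242 ± 26.5 CPM in Elf5+ libraries (SD, n = 2) and 10256 ± 6532 CPM in Elf5- libraries (SD, n = 4), with a log2 fold change of -5.41 ± 0.74 (SE), and was 42.4-fold lower in Elf5+ cells (edgeR adjusted p = 0.0124).

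The chains of type I collagen, the main fibre of stroma, fell as well. Col1a1 (ENSMUSG00000001506.10, chromosome 11, 94936224 to 94953042, plus strand) was at 441 and 152 CPM in Elf5+ libraries 1 and 2, against 4971, 4739, 11394 and 4470.3 CPM in Elf5- libraries 1 to 4. Elf5+ library 1 held more than Elf5+ library 2, and both lay below the Elf5- values. The log2 fold change of Col1a1 was -4.43 ± 0.72 (SE), with an edgeR adjusted p of 0.0177. Col1a2, its partner chain (ENSMUSG00000029661.16, chromosome 6, 4504814 to 4541544, plus strand), was at 352 and 134 CPM in Elf5+ libraries 1 and 2, against 5492, 4015, 11697 and 3537 CPM in Elf5- libraries 1 to 4. Its groups did not overlap, and its log2 fold change was -4.67 ± 0.77 (SE) (edgeR adjusted p = 0.0188). Per length, Col1a1 and Col1a2 stood in ratios of 1.13 and 1.02 in Elf5+ libraries 1 and 2, against 0.816, 1.06, 0.878 and 1.14 in Elf5- libraries 1 to 4. With merged exons as the length the ratios were 2.37 and 2.15 in Elf5+ libraries 1 and 2, against 1.71 to 2.39 in Elf5- libraries, so how the chains stand to each other depends on the length. The difference between fractions in the log2 ratio is the same on either length and was within the spread of the libraries (exact permutation test, two-sided, p = 0.667).

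Type V chains, which set fibre diameter from within type I fibres, were lower as well. Col5a1 was at 90.9 and 22.1 CPM in Elf5+ libraries 1 and 2, against 872, 1664, 1599 and 725 CPM in Elf5- libraries 1 to 4. Col5a2 was at 59.8 and 27.0 CPM in Elf5+ libraries 1 and 2, against 1035, 819.9, 2402 and 653 CPM in Elf5- libraries 1 to 4. Col5a3, a less widespread type V chain, was at 55.2 and 10.6 CPM in Elf5+ libraries 1 and 2, against 539, 1004, 598 and 399 CPM in Elf5- libraries 1 to 4. In each of the 3 genes Elf5+ library 2 was the lowest of all 6 libraries and the groups did not overlap. Log2 fold changes were -4.43 ± 0.75 (SE) for Col5a1, -4.82 ± 0.75 (SE) for Col5a2 and -4.27 ± 0.78 (SE) for Col5a3, with edgeR adjusted p of 0.0197, 0.0160 and 0.0265 in the same order. Col24a1, a minor fibrillar chain, was at 0.382 and 0.387 CPM in Elf5+ libraries 1 and 2, against 3.78, 7.79, 7.75 and 6.48 CPM in Elf5- libraries 1 to 4, near the bottom of the range in both Elf5+ libraries (log2 fold change -4.05 ± 0.54 (SE), edgeR adjusted p = 0.0121). Without Elf5+ library 2 the number of lower fibrillar collagens was 1, and without Elf5- library 1 it was 2.

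The remaining fibrillar chains did not pass with all 6 libraries. Col11a1, a type XI chain that nucleates fibres in cartilage, was at 236 and 1109 CPM in Elf5+ libraries 1 and 2, against 185, 95.3, 226 and 366 CPM in Elf5- libraries 1 to 4. Elf5+ library 2 was far above the rest, while Elf5+ library 1 lay within the Elf5- range, so the groups overlapped (log2 fold change 1.62 ± 0.64 (SE), edgeR adjusted p = 0.238). Col11a2, the second type XI chain, was at 85.7 and 67.9 CPM in Elf5+ libraries 1 and 2, against 34.4, 30.0, 29.1 and 60.0 CPM in Elf5- libraries 1 to 4. Both Elf5+ values lay above the Elf5- values, and the log2 fold change was 1.00 ± 0.33 (SE) (edgeR adjusted p = 0.150). Col11a2 passed without Elf5- library 4 (log2 fold change 1.31, edgeR adjusted p = 0.0305), and its log2 fold change turns to -0.49 when libraries are scaled to epithelial genes. Here and below, that scaling uses the 18 luminal and pan-epithelial markers. All 18 had a log2 fold change above 0, with a median of 1.39. The scaling thus moves genes down together, and the median of all genes from 0.05 to -1.41. A reversal under it is therefore not a finding about a single gene. Col2a1, the main fibrillar chain of cartilage, and Col27a1 had log2 fold changes of -1.18 and -1.34.

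**Figure D2:**
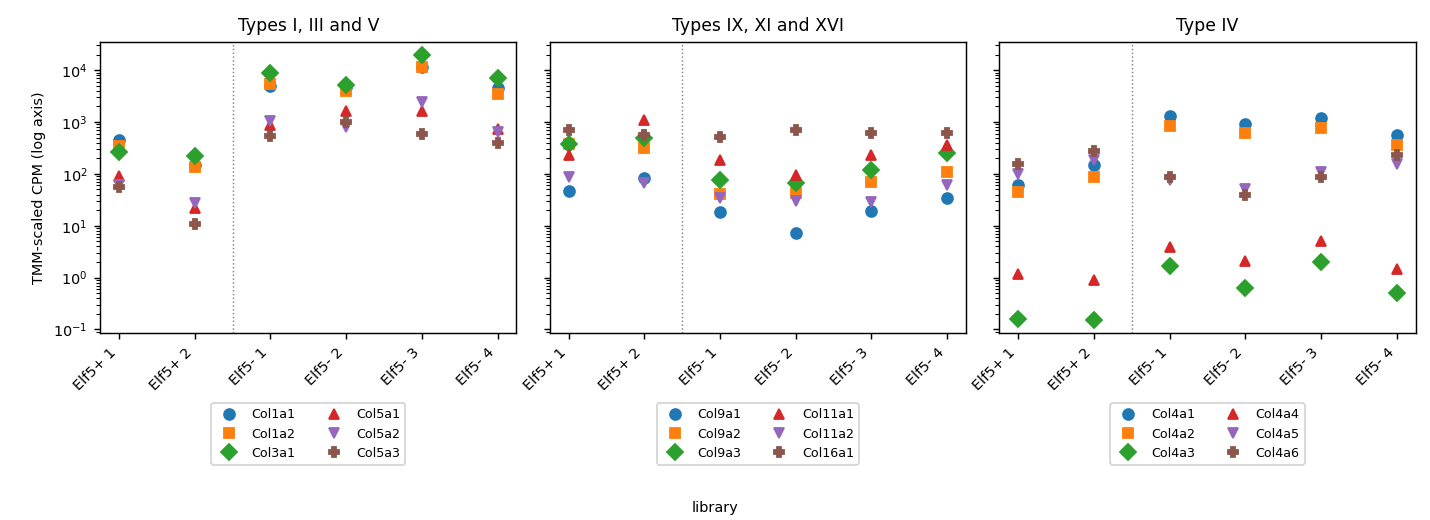
TMM-scaled CPM (log axis) of collagen genes in each of the 2 Elf5+ and 4 Elf5- libraries, 1 point per gene and library; panels hold types I, III and V, types IX, XI and XVI, and type IV. Points of types I, III and V lie lower in the Elf5+ libraries, Col16a1 of type XVI stays between 524 and 715 CPM in all 6, and the type IV chains divide.

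The FACIT class divided between higher and lower members. Of 7 tested, 1 was higher, 2 were lower and 4 did not pass, and the median log2 fold change was 0.06. Col9a2, a chain of type IX collagen, which decorates cartilage fibres (ENSMUSG00000028626.5, chromosome 4, 121039385 to 121055322, plus strand), was at 375 and 310.0 CPM in Elf5+ libraries 1 and 2, against 41.4, 43.4, 69.8 and 107 CPM in Elf5- libraries 1 to 4. Both Elf5+ libraries stood above every Elf5- library, of which library 4 was the highest. It averaged 342 ± 46.0 CPM in Elf5+ libraries (SD, n = 2) and 65.4 ± 30.7 CPM in Elf5- libraries (SD, n = 4), with a log2 fold change of 2.39 ± 0.39 (SE), and was 5.24-fold higher in Elf5+ cells (edgeR adjusted p = 0.0178). Col9a2 no longer passed without Elf5- library 1 or without Elf5- library 3, where 0.123% and 0.211% of all genes were higher. When libraries are scaled to epithelial genes its log2 fold change was 0.95 and it did not pass. With that scaling 0.087% of all genes were higher.

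The other type IX chains had the same direction and did not pass. Col9a1 was at 47.2 and 85.2 CPM in Elf5+ libraries 1 and 2, against 18.4, 7.34, 19.1 and 34.0 CPM in Elf5- libraries 1 to 4 (log2 fold change 1.75 ± 0.51 (SE), edgeR adjusted p = 0.112). Col9a3 was at 369 and 495 CPM in Elf5+ libraries 1 and 2, against 74.6, 66.8, 120.3 and 257 CPM in Elf5- libraries 1 to 4 (log2 fold change 1.74 ± 0.52 (SE), edgeR adjusted p = 0.118). In both genes the groups did not overlap and Elf5- library 4 was the nearest to the Elf5+ values. With no low-count filter and with DESeq2, Col9a1, Col9a2 and Col9a3 all passed, with 3 collagens higher in each; without the filter 0.771% of all genes were higher. Col9a3 also passed without Elf5- library 4 (edgeR adjusted p = 0.0177). Exons of Col9a3 overlap 234 bases of Tcfl5 on the other strand, and the strand setting of the counting is not given in the sources used here.

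Markers of cartilage, in which type IX and XI collagens are best known, were read beside these chains. Of 8 chondrocyte markers 7 were tested and 0 passed in edgeR in either direction, with 3 at an unadjusted p below 0.05; DESeq2 called 2 of them higher and limma-voom 1 (0.87% of all genes), and edgeR called 2 higher without Elf5- library 4 (0.654% of all genes). Their summed level was 521 and 727 CPM in the Elf5+ libraries, against 88.3 to 699 CPM in the Elf5- libraries, so the groups overlapped. Matn1, a cartilage matrix protein, was at 0 in both Elf5+ libraries, had at most 1 count in any Elf5- library and was not tested. Acan, the cartilage proteoglycan aggrecan, was at 412 and 531 CPM in Elf5+ libraries 1 and 2, against 66.5, 589, 122 and 634 CPM in Elf5- libraries 1 to 4. Snorc, a cartilage membrane proteoglycan, was at 89.1 and 155 CPM in Elf5+ libraries 1 and 2, against 7.49, 8.73, 20.3 and 51.9 CPM in Elf5- libraries 1 to 4, without overlap (log2 fold change 2.48, edgeR adjusted p = 0.107). Both Cnmd, which encodes chondromodulin, and Matn3, another cartilage matrix protein, were chosen after their values were seen. Cnmd was at 6.03 and 36.7 CPM in Elf5+ libraries 1 and 2, against 2.25, 1.17, 0.692 and 6.48 CPM in Elf5- libraries 1 to 4, with Elf5+ library 1 within the Elf5- range (log2 fold change 3.08 ± 0.93 (SE), edgeR adjusted p = 0.123). Matn3 was at 0.360 and 0.0387 CPM in Elf5+ libraries 1 and 2, against 0.284, 1.92, 3.13 and 0.617 CPM in Elf5- libraries 1 to 4, with overlap (log2 fold change -2.93 ± 1.23 (SE), edgeR adjusted p = 0.281). Of 8 Schwann cell and nerve markers 1, the transcription factor Sox10, was higher and 1, Ncam1, was lower. Log2 fold changes of that list were above 0 for 4 and below 0 for 4, with a median of -0.05, so Sox10 does not stand for the list. Sox10 was at 495 and 535 CPM in Elf5+ libraries 1 and 2, against 134, 151, 112 and 224 CPM in Elf5- libraries 1 to 4 (log2 fold change 1.73 ± 0.30 (SE), edgeR adjusted p = 0.0215). The part of these markers in the type IX and XI values was not tested.

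Among 9 tested members with a log2 fold change above 0, Elf5- library 4 was the highest Elf5- library for 7, and Elf5+ library 2 was above Elf5+ library 1 for 5. The same shares over all 11029 tested genes with a log2 fold change above 0 are not given here, and Elf5- library 4 is the smallest library. The counts are therefore not read as a trait of collagens. These counts were chosen after the values were seen and carry no test.

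Of the other FACIT chains, Col16a1, a minor fibril-associated chain, was high and level in every library, at 715 and 557 CPM in Elf5+ libraries 1 and 2, against 524, 699, 618 and 607 CPM in Elf5- libraries 1 to 4. The groups overlapped, and the log2 fold change was 0.06 ± 0.26 (SE) (edgeR adjusted p = 0.952). Its direction flips to -1.41, past the threshold, when libraries are scaled to epithelial genes, a scaling that moves the median of all genes to -1.41. Col12a1, which bridges fibres under tension, was at 64.6 and 36.5 CPM in Elf5+ libraries 1 and 2, against 431, 401, 1331 and 356 CPM in Elf5- libraries 1 to 4. Elf5- library 3 stood apart, and the log2 fold change was -3.64 ± 0.71 (SE) (edgeR adjusted p = 0.0319). Col14a1, which limits fibre growth, was at 12.9 and 13.8 CPM in Elf5+ libraries 1 and 2, against 342, 194, 784 and 347 CPM in Elf5- libraries 1 to 4, with both Elf5+ values nearly the same (log2 fold change -4.96 ± 0.66 (SE), edgeR adjusted p = 0.0121). The count of 2 lower FACIT collagens was 1 without Elf5+ library 1 or without Elf5- library 1, and 0 without Elf5+ library 2.

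Type IV collagen divided by chain. Of its 6 chains 2 were lower and 4 did not pass. Col4a1, one of the ubiquitous chains (ENSMUSG00000031502.11, chromosome 8, 11198423 to 11312826, minus strand), was at 61.3 and 151 CPM in Elf5+ libraries 1 and 2, against 1287, 929, 1209 and 573 CPM in Elf5- libraries 1 to 4 (log2 fold change -3.23 ± 0.54 (SE), edgeR adjusted p = 0.0191). Col4a2, its partner, was at 44.9 and 85.5 CPM in Elf5+ libraries 1 and 2, against 839, 619, 783 and 359 CPM in Elf5- libraries 1 to 4 (log2 fold change -3.32 ± 0.49 (SE), edgeR adjusted p = 0.0137). Elf5+ library 2 held more of both than Elf5+ library 1, and neither gene overlapped between groups. Their start sites lie 21 bases apart on opposite strands, with 22 overlapping exonic bases. Without Elf5- library 1 or Elf5- library 3 1 of these 2 chains passed.

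Col4a5 and Col4a6, the chains of epithelial basement membranes, lie head to head on chromosome X with 1309 bases between start sites. Col4a5 was at 100.3 and 183 CPM in Elf5+ libraries 1 and 2, against 77.5, 50.4, 110.3 and 154 CPM in Elf5- libraries 1 to 4, with overlap (log2 fold change 0.53 ± 0.44 (SE), edgeR adjusted p = 0.636). Col4a6 was at 152 and 275 CPM in Elf5+ libraries 1 and 2, against 87.2, 39.2, 86.3 and 236 CPM in Elf5- libraries 1 to 4, also with overlap (log2 fold change 0.93 ± 0.61 (SE), edgeR adjusted p = 0.533). Both log2 fold changes turn negative, at -0.87 for Col4a5 and -0.50 for Col4a6, when libraries are scaled to epithelial genes, a scaling that moves the median of all genes to -1.41. Within type IV counts, Col4a5 and Col4a6 took 70.1 and 65.8% in Elf5+ libraries 1 and 2, against 7.17, 5.46, 8.95 and 29.4% in Elf5- libraries 1 to 4. Per length, Col4a5 stood to Col4a1 in ratios of 1.66 and 1.22 in Elf5+ libraries 1 and 2, against 0.0610, 0.0549, 0.0924 and 0.272 in Elf5- libraries 1 to 4. Every Elf5+ ratio lay above every Elf5- ratio, a log2 difference of 3.89 (exact permutation test, two-sided, p = 0.133, adjusted p = 0.467 over 7 ratios), where 0.133 is the smallest p that 15 assignments can give. Col4a3 and Col4a4, the chains known from the glomerulus, were under 6 CPM in each library and had log2 fold changes of -2.95 and -1.62.

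Among the 18 other collagens 8 were lower and 0 higher in edgeR, with 15 at an unadjusted p below 0.05, and DESeq2 called 15 lower and 0 higher. Type VI chains form beaded filaments around cells, and 4 of 6 were lower. Col6a1 was at 99.6 and 24.8 CPM in Elf5+ libraries 1 and 2, against 1159, 1103, 1782 and 621 CPM in Elf5- libraries 1 to 4. Col6a2, whose gene neighbours it on chromosome 10, was at 65.3 and 19.8 CPM in Elf5+ libraries 1 and 2, against 1057, 906, 1533 and 545 CPM in Elf5- libraries 1 to 4. Their groups did not overlap, and the log2 fold changes were -4.23 ± 0.73 (SE) and -4.57 ± 0.69 (SE) (edgeR adjusted p = 0.0218 and 0.0149). Col6a5 was at 0.270 and 0.348 CPM in Elf5+ libraries 1 and 2, against 32.2, 7.03, 20.7 and 13.3 CPM in Elf5- libraries 1 to 4. Col6a6 was at 0.135 and 0.232 CPM in Elf5+ libraries 1 and 2, against 25.5, 6.68, 9.15 and 5.86 CPM in Elf5- libraries 1 to 4. Both were below 1 CPM in the Elf5+ libraries and gave the 2 most negative log2 fold changes of the family, -5.87 ± 0.78 (SE) and -5.98 ± 0.91 (SE) (edgeR adjusted p = 0.0121 and 0.0149). Col6a4, Col6a5 and Col6a6 are related chains, among which estimated counts can divide reads by model. Col6a3 and Col6a4 had log2 fold changes of -3.62 and -3.79 and did not pass.

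Multiplexins, basement membrane zone collagens that release anti-angiogenic fragments, were both lower. Col15a1 was at 23.8 and 14.1 CPM in Elf5+ libraries 1 and 2, against 460.4, 257, 608 and 217 CPM in Elf5- libraries 1 to 4 (log2 fold change -4.34 ± 0.58 (SE), edgeR adjusted p = 0.0121). Col18a1, the source of endostatin, was at 184 and 126 CPM in Elf5+ libraries 1 and 2, against 351, 615, 576 and 498 CPM in Elf5- libraries 1 to 4 (log2 fold change -1.72 ± 0.34 (SE), edgeR adjusted p = 0.0324). The groups did not overlap in either gene, and the difference was the smallest among the 19 lower collagens in Col18a1. Of the transmembrane collagens, Col17a1, a hemidesmosome component, was at 1.73 and 1.01 CPM in Elf5+ libraries 1 and 2, against 14.1, 20.2, 46.7 and 18.0 CPM in Elf5- libraries 1 to 4 (log2 fold change -4.18 ± 0.64 (SE), edgeR adjusted p = 0.0157). Col23a1 was at 0.720 and 0.252 CPM in Elf5+ libraries 1 and 2, against 6.98, 4.98, 18.3 and 3.39 CPM in Elf5- libraries 1 to 4 (log2 fold change -4.12 ± 0.92 (SE), edgeR adjusted p = 0.0489). Col25a1 was at 15.6 and 12.0 CPM in Elf5+ libraries 1 and 2, against 7.05, 12.5, 5.78 and 12.1 CPM in Elf5- libraries 1 to 4, with overlap and a log2 fold change of 0.57 ± 0.40 (SE) (edgeR adjusted p = 0.565), which turns to -0.92 when libraries are scaled to epithelial genes.

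The 10 other collagens that did not pass include Col7a1, the anchoring fibril chain of epithelial basement membranes, which overlapped between groups at 171 and 103 CPM in Elf5+ libraries 1 and 2, against 141 to 388 CPM in Elf5- libraries. Col8a1, Col8a2 and Col10a1, the short-chain network collagens, had log2 fold changes of -3.42, -1.94 and -5.56. Without Elf5+ library 2 the 8 lower members became 2, and without Elf5- library 1 or Elf5- library 3 they became 5.

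The make-up of the collagen RNA was read as shares within each library. Fibrillar collagens took 37.4 and 40.9% in Elf5+ libraries 1 and 2, against 73.0, 68.4, 79.9 and 74.6% in Elf5- libraries 1 to 4, of all collagen counts. The fibrillar class includes type XI, which took 7.32 and 27.3% in Elf5+ libraries 1 and 2, against 0.427 to 1.84% in Elf5- libraries. Types I, III and V took 28.6 and 13.2% in Elf5+ libraries 1 and 2, against 67.6 to 79.3% in Elf5- libraries. FACIT collagens took 36.1 and 34.8% in Elf5+ libraries 1 and 2, against 4.73, 5.45, 4.91 and 7.38% in Elf5- libraries 1 to 4. Type IX and XI chains together took 25.3 and 47.9% in Elf5+ libraries 1 and 2, against 1.17, 0.936, 0.776 and 3.55% in Elf5- libraries 1 to 4. Basement membrane collagens took 8.18 and 16.1% in Elf5+ libraries 1 and 2, against 3.66 to 7.56% in Elf5- libraries. For the fibrillar, FACIT, basement membrane and type IX and XI shares the Elf5+ and Elf5- values were apart. The share of other collagens overlapped, at 18.4 and 8.21% in Elf5+ libraries 1 and 2, against 11.5 to 19.8% in Elf5- libraries (exact permutation test, two-sided, p = 0.8). The exact permutation test of the fibrillar, FACIT and basement membrane class shares gave p = 0.133 each (two-sided, adjusted p = 0.178 over 4 classes), the smallest p that 2 against 4 libraries allow. Per length the basement membrane shares overlapped, at 6.22 and 12.7% in Elf5+ libraries 1 and 2, against 3.18 to 6.55% in Elf5- libraries. Per length, FACIT collagens took 46.4 and 48.6% in Elf5+ libraries 1 and 2, against 4.41, 5.34, 4.03 and 8.11% in Elf5- libraries 1 to 4.

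**Figure D3:**
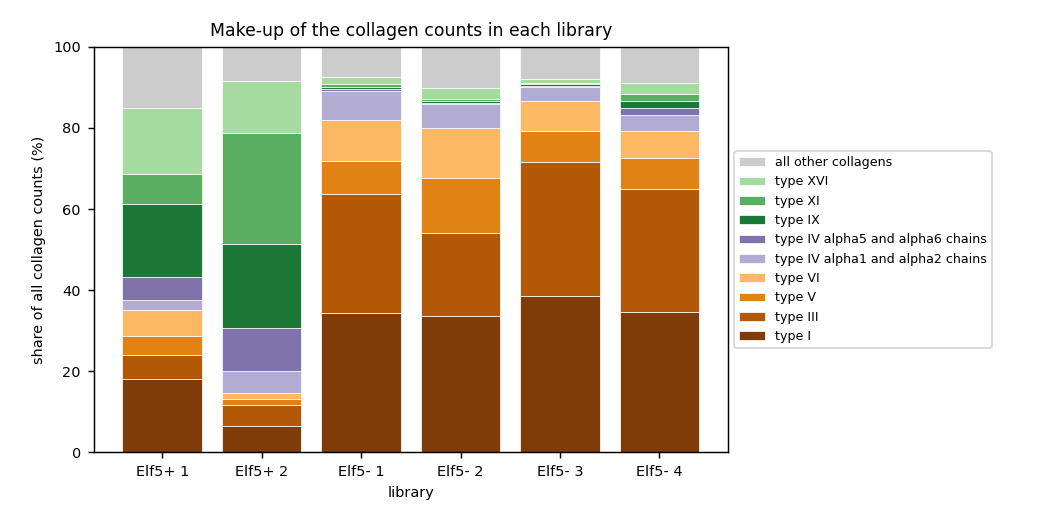
Share of all collagen counts (percent) by collagen type in each library, with Elf5+ libraries 1 and 2 on the left of Elf5- libraries 1 to 4. Types I, III and V together take 28.6% and 13.2% in the Elf5+ libraries and 67.6% to 79.3% in the Elf5- libraries, and type IX takes 18.0% and 20.6% against 0.349% to 1.72%.

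Ranked by level per kilobase of the transcript, averaged over the 2 Elf5+ libraries, the 5 highest collagens were Col9a3, Col16a1, Col9a2, Col11a1 and Col1a1. Col9a3, Col16a1 and Col9a2 were among the first 4 in both Elf5+ libraries, whereas Col11a1 was at rank 8 in library 1 and rank 2 in library 2, and Col1a1 at rank 4 in library 1 and rank 8 in library 2. Col9a3 reached 142 CPM per kilobase in Elf5+ libraries, against 42.6 in Elf5- libraries. Col1a1 reached 50.0 CPM per kilobase in Elf5+ libraries, against 1078 in Elf5- libraries. In Elf5- cells the 3 highest were Col3a1, Col1a2 and Col1a1, and Col9a3 was at rank 18. The mean levels of Col9a3, Col16a1 and Col9a2 in Elf5+ cells, 142, 122 and 117 CPM per kilobase, were close to each other, and their order depended on the length used.

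Genes that make, export, process and bind collagen were examined beside the chains. In the 20 genes of procollagen folding and modification, 6 were lower and 0 higher in edgeR, with 13 at an unadjusted p below 0.05, DESeq2 called 8 lower and 0 higher, and the median log2 fold change was -0.93. P3h3, P4ha3 and P3h1, prolyl hydroxylases, had log2 fold changes of -3.26, -4.15 and -3.04, and Fkbp10, a collagen chaperone, of -3.37. In procollagen export 2 of 7 were lower, the coat proteins Sec24d and Sec23a, at -1.92 and -1.21, with a median of -0.33. Of 9 tested genes of propeptide processing 3 were lower, among them the amino-propeptidase Adamts2 at -4.73 and the enhancer Pcolce at -1.92, with a median of -2.13.

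Cross-linking enzymes and fibre-binding proteins had medians further from 0 than these 3 lists. Of 5 lysyl oxidases 3 were lower, Loxl1 at -4.84, Lox at -4.61 and Loxl2 at -3.42, with a median of -3.42. Of 14 fibre-binding proteoglycans and glycoproteins 11 were lower, with a median of -4.37, or -4.35 with Kera, at 0 in both Elf5+ libraries, set at its bound of 3 counts per library. Tnxb, a tenascin that binds fibres, was at 9.61 and 9.08 CPM in Elf5+ libraries 1 and 2, against 690.0, 258, 693 and 436 CPM in Elf5- libraries 1 to 4. Dcn (decorin), Lum and Dpt are also in the fibroblast marker list. Of 10 tested collagen receptors 3 were lower, the integrin chains Itga1 at -4.30 and Itga11 at -2.95 and the endocytic receptor Mrc2 at -1.33, with a median of -0.75. These lists moved with single libraries: without Elf5+ library 2 the 6 lists held 1, 1, 1, 1, 4 and 1 lower genes in the order given, and without Elf5- library 1 they held 2, 0, 1, 1, 5 and 1.

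**Figure D4:**
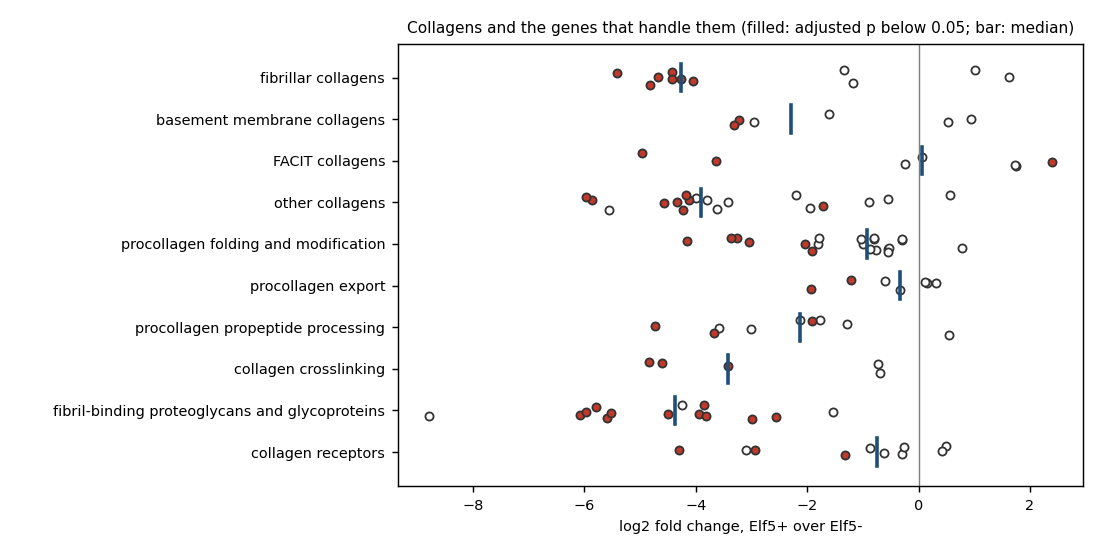
Log2 fold change, Elf5+ over Elf5-, of each tested gene of the 4 collagen classes and of 6 lists of collagen-handling genes; filled points passed an adjusted p of 0.05 and the vertical bar is the list's median. Medians run from -4.37 for fibre-binding proteins to 0.06 for FACIT collagens.

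Levels in Elf5+ cells as a share of Elf5- cells were set side by side for summed groups. Fibrillar collagens averaged 6.49%, type VI collagens 5.73%, fibroblast markers 6.55%, and pericyte and smooth muscle markers 10.5% of the Elf5- level. In Elf5+ library 2, Col11a1 alone gave 1109 of the 1765 CPM of fibrillar collagens. Of the fibroblast marker sums, 312 and 399 CPM in Elf5+ libraries 1 and 2, Lrp1 gave 111 and 146 CPM. Pdgfra, the marker that did not pass, gave 40.7 and 177 CPM. The closeness of the fibrillar and fibroblast averages therefore rests on few genes. By median log2 fold change the fibroblast markers were at -4.80 and the fibrillar collagens at -4.27. The single chains of types I, III and V averaged 2.36% to 5.18% of their Elf5- level. Type VI sums were 289 and 64.0 CPM in Elf5+ libraries 1 and 2, so that average covers unlike libraries. FACIT collagens averaged 82.3% and basement membrane collagens 28.3%.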

How the data were processed

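Per the submitters' processing notes, the authors used Salmon with build GRCm38.p5. The deposited values, made by the authors in this way, are estimated counts for 52325 Ensembl genes. Not given in the sources used here: the Salmon version, the annotation release, the strand setting and how transcripts were summed. All values were whole, so rounding changed none; reads of near-identical genes are divided by a model. Symbols were found for 52220 identifiers, ignoring version. The tools were edgeR 4.0.16, limma 3.58.1 and DESeq2 1.42.0 in R 4.3.3, and scipy 1.17.1 and matplotlib 3.10.9 in Python 3.11.15. After filterByExpr by group 20684 genes remained. The contrast of Elf5+ with Elf5- used quasi-likelihood F tests in edgeR after TMM scaling, with no block and Benjamini-Hochberg adjustment over all genes (threshold 0.05). A standard error is the size of the log2 fold change over the square root of F. The biological coefficient of variation was 0.446. With 9106660 counts against up to 53694884 elsewhere, Elf5- library 4 is the least precise for low genes.

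Levels per kilobase use the spliced length of the transcript with the longest coding sequence (GENCODE M21, GRCm38). The merged length of all annotated exons was used first and was replaced after per-length values had been seen. With merged exons the Col1a1 to Col1a2 ratio ran from 1.71 to 2.39, and in 10 members merged exons are over 1.5 times longer than the transcript. This choice was made with its result in view, and the closing section gives values on both lengths. The members and all lists were chosen with earlier results of these data known. Values in every library are given for collagens that passed, for tested collagens with a log2 fold change above 0 and for the 5 of highest level per length in Elf5+ cells; up to 4 genes are named per list, and exceptions are marked. Class shares and chain ratios were tested with an exact permutation test over 15 assignments, which cannot go below p = 0.133. Replicate numbers only name the libraries. In simulated counts for this comparison, 226 of 250 genes were recovered at a log2 change of 3 and 184 of 250 at -3, but 9 of 250 at 1 and 2 of 250 at -1; false calls were 35 of 456. The alternatives covered scaling, low-count filters, the tool, a block for the number in the title, T2 libraries alone and leaving out libraries. Further marker lists gave 3 of 12 endothelial genes lower, 0 of 12 leukocyte genes (1 lower with DESeq2), 0 of 10 skeletal muscle genes (1 lower with DESeq2), 0 of 3 adipocyte and 0 of 4 erythroid genes tested, and 1 of 11 basal epithelial genes lower. Skeletal muscle markers summed to 262 CPM in Elf5- library 1, against 4.56 to 49.3 CPM in the other Elf5- libraries.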

Additional observations from a re-analysis of the deposited data

Results flagged for a closer look

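Values of the 4 Elf5- libraries were checked for a library that stood apart from the other 3, by the gap to its neighbour as a share of the whole range, for 44 members, 4 class shares and 7 chain ratios. Of these 55 checks 6 stood out. The cut-off flags about 1 in 20 only for independent values with a normal spread. Raw CPM of collagens that move together need not be such values, so the 6 are not read as an excess. Elf5- library 3 stood apart for Col12a1 (gap share 0.923), at 1331 CPM against 356 to 431 CPM in the other 3, for Col1a1 (0.928), at 11394 CPM against 4470.3 to 4971 CPM, for Col28a1 (0.866), at 16.7 CPM against 3.36 to 5.14 CPM, and for Col10a1 (0.906), at 23.8 CPM against 1.85 to 3.91 CPM. Elf5- library 4 stood apart for Col11a2 (0.830), at 59.96 CPM against 29.1 to 34.4 CPM, and Elf5- library 1 for Col6a6 (0.832), at 25.5 CPM against 5.86 to 9.15 CPM. No explanation was tested.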

How the results depend on the processing

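No called collagen changed sign in any of 16 settings. Main counts were 19 lower and 1 higher collagens, and 783 lower and 121 higher genes. Scaling to epithelial genes moved the median of all genes to -1.41, against 0.05, and gave 33 lower and 0 higher collagens (basement membrane 4, others 17), with 11450 lower and 18 higher genes. With no low-count filter there were 26 lower (others 14) and 3 higher collagens and 1331 lower and 273 higher genes, and with DESeq2 28 lower (others 15) and 3 higher collagens and 1732 and 393 genes. Whether samples are paired is not settled by the 2 title numbers and the title code, as the labels define neither. Elf5+ library 1 shares both number and code with Elf5- library 2, and Elf5+ library 2 shares both with Elf5- library 4. Among T2 libraries, Elf5+ library 1 and Elf5- library 2, which share a number, deviated together (r = 0.62 over 20684 genes), a hint from these data that 2 pairs cannot settle. Over all libraries Elf5+ library 1 gave r = 0.50 with Elf5- library 2, but 0.16 with Elf5- library 1, which has the same number and the code T1. With Elf5- libraries 3 and 4, which have the other number, r was 0.03 and -0.56. As a replicate block the title number gave 20 lower and 3 higher collagens (Col9a1, Col9a2 and Col9a3) and 1011 lower and 252 higher genes. Among T2 libraries the block gave 26 lower (others 14) and 3 higher collagens (Col9a1, Col9a2 and Col11a1) and 1368 and 549 genes, and no replicate block gave 0 of each, for collagens, each class (fibrillar, basement membrane, FACIT, others), all genes and each of the 6 handling lists. Without Elf5- libraries 1 and 2 there were 2 lower (fibrillar 0, basement membrane 0, FACIT 1, others 1) and 0 higher collagens, and 75 lower and 0 higher genes.

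Leaving out 1 library gave 5 to 21 lower and 0 to 3 higher collagens, 1 to 8 lower fibrillar, 1 to 2 basement membrane, 0 to 2 FACIT and 2 to 9 other collagens, and 197 to 811 lower and 25 to 133 higher genes. The handling lists had 1 to 7 (folding), 0 to 2 (export), 1 to 4 (propeptides), 1 to 3 (cross-linking), 4 to 13 (fibre-binding) and 1 to 3 (receptors) lower genes, and 19, 7, 8, 5, 14 and 9 when scaled to epithelial genes.

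Reversed log2 fold changes under epithelial scaling were -0.50 for Col4a6, -0.87 for Col4a5, -1.41 for Col16a1, -0.49 for Col11a2 and -0.92 for Col25a1. Col16a1 was also -0.033 in T2 libraries, -0.039 with the block there, and -0.14 to 0.22 with 1 library left out, and Col20a1 was 0.017 with limma-voom, 0.44 without Elf5- libraries 1 and 2 and -0.54 to 0.065 with 1 library left out. Per length the Elf5+ minus Elf5- share was -41.98 points for fibrillar and 42.0 for FACIT collagens with the transcript length, and -42.6 and 44.4 with merged exons, a length added after seeing the data. The share of other collagens moved between -6.37 and 3.82 points with 1 library left out. Log2 ratios reversed in T2 libraries, at -0.035 for Col1a1 to Col1a2 and -0.43 for Col5a1 to Col5a2, and with 1 library left out ran from -0.18 to 0.20 for Col4a1 to Col4a2 and from -0.37 to 0.52 for Col5a1 to Col5a2. Reversals under epithelial scaling go with its shift of all genes, and the cause of the other changes was not tested. A change of 1 on the log2 scale was mostly missed at this number of libraries, and the 9106660 counts of Elf5- library 4 limit low genes.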
